A study of Homo sapiens with 4 samples.

Results

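The mitochondrially encoded genes are the genes of the small circular DNA that mitochondria carry. They were chosen as all genes that the deposited gene list places on the chromosome named MT, which gave 37 of 58735 genes. Of these 37, 13 encode proteins, 2 encode ribosomal RNAs (rRNAs) and 22 encode transfer RNAs (tRNAs). The choice used the chromosome alone and no measured value, although earlier results of these data were known when it was made. RNA was sequenced from the human glioblastoma (GBM) cell lines U251 and U87, each as a Control library and a library of cells treated for 48 h with brusatol (Bru), a compound extracted from a Chinese medicinal plant. This made 4 libraries with 1 per condition, so no difference below has a replicate check and no p-value is given. The Control cells are those without Bru, Bru was given at the concentration that the study calls the IC50 of each line, and all cells came from established tumor lines grown in culture. The question addressed was how RNA levels in GBM cells differ between Bru and Control.

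All 13 proteins made from mitochondrial DNA are subunits of the respiratory chain and the ATP synthase, which together turn the oxidation of nutrients into ATP. The remaining subunits are encoded in the nucleus, made in the cytosol and imported. The mitochondrial polymerase POLRMT copies both strands of the circle into long transcripts, and the tRNAs that lie between the other genes are cut out to release the rRNAs and messenger RNAs. Most messenger RNAs of mitochondria then receive a short poly(A) tail, while LRPPRC and SLIRP keep them stable.

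The molecule leaves little room between genes, and several genes share bases. MT-ATP8 and MT-ATP6 overlap by 46 bases, MT-ND4L and MT-ND4 by 7 bases, MT-TI and MT-TQ by 3 bases, MT-ATP6 and MT-CO3 by 1 base, and MT-TC and MT-TY by 1 base. The longest of these overlaps is shown because a read that reaches into it touches both ATP synthase genes. How such reads were counted was not given, so the levels of MT-ATP8 and MT-ATP6 may not be fully separate measurements. It lies at chrMT:8527-8572 on the plus strand of GRCh38, and its sequence was read from the transcripts of GENCODE release 29. The capitals mark the start codon of MT-ATP6 and the stop codon of MT-ATP8, which are read in different frames.
Overlap of MT-ATP8 and MT-ATP6: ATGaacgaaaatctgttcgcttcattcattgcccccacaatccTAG

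Only 7 of the 13 protein genes end in a whole stop codon, and the other 6 have lengths that are not a multiple of 3 and end in the first bases of one, which the poly(A) tail completes in the mature RNA. Of the protein genes, 12 lie on the plus strand, and MT-ND6 alone lies on the minus strand. Base composition followed the strand, since MT-ND6 held 35.6% G and 7.05% C, while MT-CO1 held 16.2% G and 30.0% C and MT-ATP8 held 6.28% G and 33.3% C. Of the tRNA genes, 14 lie on the plus strand and 8 on the minus strand. The 4 tRNA genes on which most tRNA reads were counted (MT-TN, MT-TC, MT-TP and MT-TH) are shown together with MT-TY, which overlaps MT-TC. Capitals mark the anticodon, each sequence is written 5′ to 3′ on the strand of the gene, and the source is again GENCODE release 29. MT-TN (chrMT:5657-5729, minus strand) carries asparagine, MT-TC (chrMT:5761-5826, minus strand) cysteine, MT-TY (chrMT:5826-5891, minus strand) tyrosine, MT-TP (chrMT:15956-16023, minus strand) proline and MT-TH (chrMT:12138-12206, plus strand) histidine.
MT-TN: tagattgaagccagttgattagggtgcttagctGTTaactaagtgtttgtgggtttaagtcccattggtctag
MT-TC: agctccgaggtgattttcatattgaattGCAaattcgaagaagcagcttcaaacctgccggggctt
MT-TY: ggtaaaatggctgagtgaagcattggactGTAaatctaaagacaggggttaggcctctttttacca
MT-TP: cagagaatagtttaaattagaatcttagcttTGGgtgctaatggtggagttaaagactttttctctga
MT-TH: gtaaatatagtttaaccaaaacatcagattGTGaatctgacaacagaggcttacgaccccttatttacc

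The 4 libraries held between 17083896 and 21453561 reads on genes, where a read is a sequenced fragment recovered from the deposited FPKM (fragments scaled to gene length in kilobases and to library size). At least 1 read was counted on 33 or 34 of the 37 genes in each library. VIM, an intermediate filament gene of glial tumor lines, stood at 606 to 701 FPKM in all 4 libraries. The neural stem cell genes NES and SOX2 separated the lines, with NES at 125 and 50.6 FPKM in U251 Control and Bru against 1.46 and 0.569 FPKM in U87, and with SOX2 at 0 and 2 reads in U87. The astrocyte gene GFAP was low, at 2.42 and 1.08 FPKM in U251 and 0.215 and 0.147 FPKM in U87, the glial gene S100B had 9 reads in U251 Control and 0 elsewhere, and OLIG2, of the oligodendrocyte lineage, did not exceed 1.05 FPKM. Markers of blood, vessel, epithelial, neuronal, myelinating and liver cells (PTPRC, PECAM1, EPCAM, RBFOX3, MBP and ALB) were at 0.499 FPKM or below. Whether Bru or Control cells differed in their number of mitochondria was not measured, and fewer cells of a type and less RNA per cell cannot be told apart in bulk RNA.

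The 37 genes took 644785 reads of U251 Control, a share of 3.01%, and 433054 reads of U251 Bru, a share of 2.43%. In U87 they took 717393 reads of Control (3.93%) and 693448 reads of Bru (4.06%). The share was therefore lower after Bru in U251 and nearly equal in U87, and both U87 libraries lay above both U251 libraries. On the log2 scale the share differed by -0.31 in U251 (95% exact interval -0.31 to -0.30) and by 0.0472 in U87 (0.0424 to 0.0519), or by 0.00503 in U87 when the library size inside the FPKM was the denominator. These and all later intervals are 95% exact Clopper-Pearson intervals of the recovered reads, and they cover counting error alone, since no molecular identifiers were used and no other culture of a condition was sequenced. Counting error is small at this depth, so an interval that leaves out 0 separates these libraries and not the conditions.

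Messenger RNAs made up most of the mitochondrial reads. The 13 protein genes held 89.2% and 88.4% of them in U251 Control and Bru and 93.8% and 93.2% in U87 Control and Bru. The rRNAs held 10.5% and 11.2% in U251 against 5.84% and 6.33% in U87. The 22 tRNAs held between 0.277% and 0.498%. For each read on the protein genes there were thus 0.118 and 0.127 rRNA reads in the U251 libraries but 0.0623 and 0.0680 in the U87 libraries, although the rRNAs are far more abundant than the messenger RNAs in mitochondria as a rule. How the kit treated rRNA, or whether RNA with poly(A) was selected, was not given in the sources used here, so the rRNA and tRNA values describe these libraries and not the pools in the cell.

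Levels per length spanned more than 10-fold within the 13 protein genes of every library. Complex IV genes were at the top. MT-CO2 was the highest in both U251 libraries, at 6213 FPKM in Control and 4503 FPKM in Bru, and MT-CO1 was the highest in both U87 libraries, at 8132 FPKM in Control and 7248 FPKM in Bru. MT-CO3 came next after these genes in each of the 4 libraries. At the bottom stood MT-ND6, at 404 and 267 FPKM in U251 and 705 FPKM in U87 Bru, and MT-ND5 was the lowest in U87 Control at 552 FPKM. The highest gene exceeded the lowest by 15.4-fold and 16.8-fold in U251 Control and Bru and by 14.7-fold and 10.3-fold in U87 Control and Bru.

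**Figure D1:**
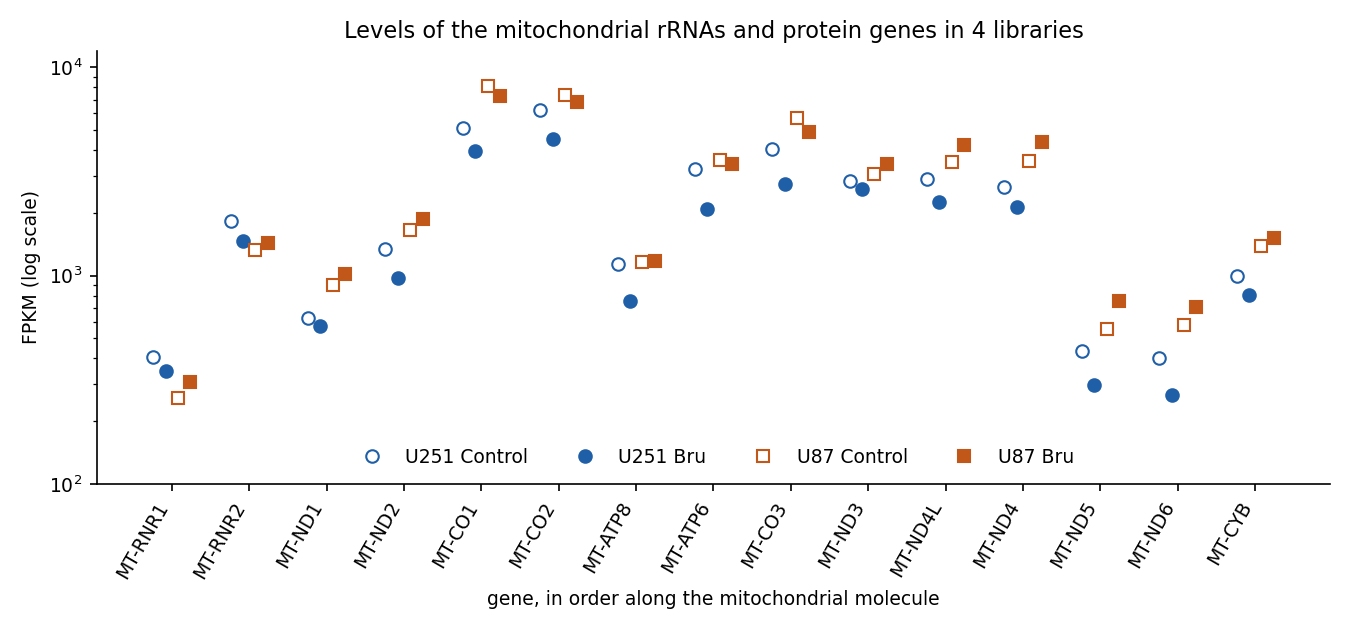
FPKM on a log axis for the 2 rRNAs and 13 protein genes in their order along the molecule, with open symbols for Control, filled symbols for Bru, circles for U251 and squares for U87, and 1 library per symbol. In U251 each filled circle lies below its open circle, whereas in U87 the filled squares lie above the open squares for 9 of the 13 protein genes and for both rRNAs.

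Within these levels some neighbors stayed close to each other. MT-ND4L and MT-ND4, which share 1 messenger RNA, stood in FPKM ratios of 1.10 and 1.06 in Control and Bru of U251 and of 0.988 and 0.968 in Control and Bru of U87. MT-ATP8 and MT-ATP6 also share 1 messenger RNA, but the ratio of MT-ATP8 to MT-ATP6 was 0.351 and 0.361 in U251 and 0.324 and 0.343 in U87. It was therefore steady over the libraries and well under 1, with MT-ATP8 being 207 bases long and sharing 46 of them. MT-RNR2, the large subunit rRNA, exceeded MT-RNR1, the small subunit rRNA, by 4.48-fold and 4.21-fold in U251 Control and Bru and by 5.17-fold and 4.62-fold in U87 Control and Bru, although both are copied from the same stretch in 1 transcript.

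In U251, all 13 protein genes were lower in Bru than in Control. On FPKM + 0.1, the scale used for all counts and medians, the log2 ratios ran from -0.13 for MT-ND3 to -0.62 for MT-ATP6 with a median of -0.46, and every interval lay below 0. Of the 12949 genes whose FPKM averaged 1 or more over the 4 libraries, called all genes tested below, 52.1% were below 0 in the same comparison and the median was -0.03. A 25% cutoff was used for small differences, meaning that the higher value exceeds the lower by over 25%. Past this cutoff 9 of the 13 were lower in Bru, where 28.4% of all genes tested were, and 0 were higher, where 23.4% were. The count of lower genes was 7 when libraries were scaled by the total of recovered reads, with or without MT genes, or by the 75th percentile. The share of all genes tested was not counted under these scalings, which shift all genes too. None of the 13 was past 2-fold, where 5.44% of all genes tested were lower and 3.36% higher. The interquartile range of all genes tested ran from -0.38 to 0.30, and 7 of the 13 lay under its lower end.

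In U87, the same 13 genes did not move in 1 direction. Bru was above Control for 9 of them and below for 4, while 42.3% of all genes tested were above 0 and 56.7% below. The log2 ratios ran from -0.23 for MT-CO3 to 0.45 for MT-ND5 with a median of 0.15, against a median of -0.04 over all genes tested. Summed over the 13 genes, the reads differed by -0.00 on the log2 scale in U87 (-0.01 to 0.00), against -0.41 in U251 (-0.42 to -0.40). The near-zero sum in U87 was thus made of genes on both sides of 0. Past the 25% cutoff 1 of 13, MT-ND5, was higher, where 10.5% of all genes tested were, and 0 were lower, where 14.2% were. The count of higher genes was 3 or 4 under 4 of 5 other scalings of the libraries. Those scalings shift all genes too, and the share of all genes tested was not counted under them. The interquartile range of all genes tested was narrower here, from -0.20 to 0.12, and 8 of the 13 lay above its upper end and 1, MT-CO3, under its lower end.

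**Figure D2:**
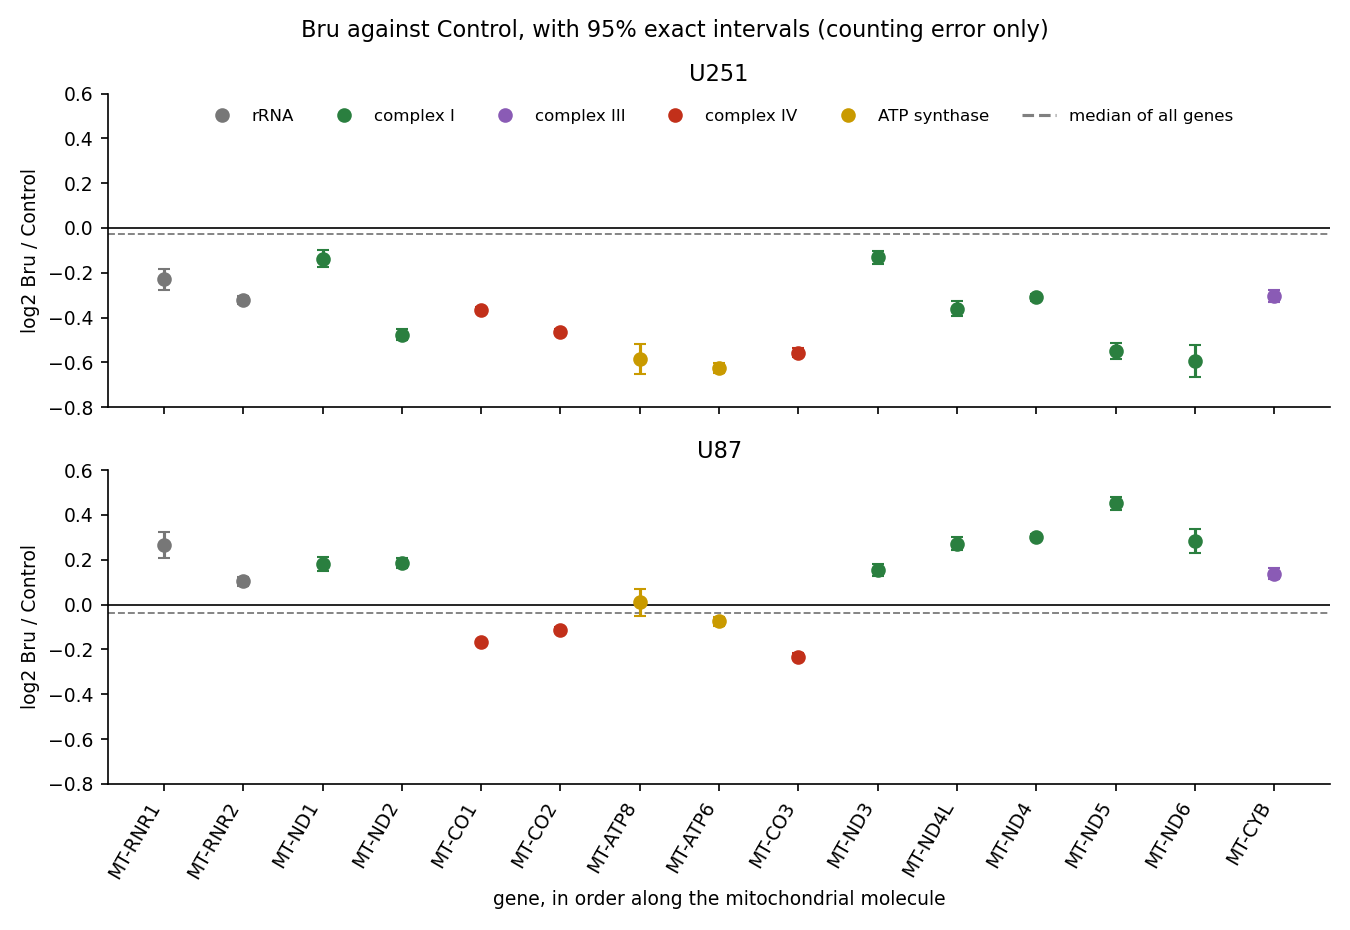
Log2 ratio of Bru to Control without a pseudocount for the 2 rRNAs and 13 protein genes in U251 (top) and U87 (bottom), colored by complex, with 95% exact intervals of counting error and a dashed line at the median of all genes tested. In U251 all points lie below 0, and in U87 the 3 complex IV genes (red) lie below 0 and the 7 complex I genes (green) above it.

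The 7 complex I genes encode the membrane core of NADH dehydrogenase, where electrons enter the chain from NADH and protons are pumped. In U251 all 7 were lower in Bru, and in U87 all 7 were higher. Summed over the 7 genes, the log2 ratio was -0.33 in U251 (-0.34 to -0.32) and 0.27 in U87 (0.26 to 0.28). MT-ND5, one of the antiporter-like proton-pumping subunits, was at 437 FPKM in U251 Control and 299 FPKM in U251 Bru, and at 552 and 755 FPKM in U87 Control and Bru. Its log2 ratios of -0.55 (-0.58 to -0.51) and 0.45 (0.42 to 0.48) were the widest apart of the 15 genes. MT-ND6, the minus-strand gene, stood at 404 and 267 FPKM in U251 and at 579 and 705 FPKM in U87, giving log2 ratios of -0.59 (-0.66 to -0.52) and 0.28 (0.23 to 0.34). The minus-strand gene therefore had the same sign as its plus-strand neighbor MT-ND5 in each line.

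MT-ND4, another antiporter-like subunit, carried the most reads of complex I and was at 2649.8 and 2138 FPKM in U251 Control and Bru and at 3557 and 4384 FPKM in U87 Control and Bru. Its log2 ratios were -0.31 (-0.33 to -0.29) and 0.30 (0.29 to 0.31). MT-ND4L, from the same messenger RNA, was at 2902 and 2261 FPKM in U251 and at 3515 and 4244 FPKM in U87, with log2 ratios of -0.36 (-0.39 to -0.33) and 0.27 (0.24 to 0.30). The 2 cistrons thus gave nearly the same ratio in each line. MT-ND2, also antiporter-like, was at 1346 and 968 FPKM in U251 and at 1652 and 1877 FPKM in U87, which gave -0.48 (-0.50 to -0.45) and 0.18 (0.16 to 0.21).

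MT-ND1 and MT-ND3 showed the smallest differences of complex I in both lines. MT-ND1, which lies at the quinone-binding end of the complex, was at 628 and 571 FPKM in U251 Control and Bru and at 901 and 1021 FPKM in U87. Its log2 ratios were -0.14 (-0.17 to -0.10) and 0.18 (0.15 to 0.21). MT-ND3 was at 2843 and 2595 FPKM in U251 and at 3084 and 3433 FPKM in U87, with log2 ratios of -0.13 (-0.16 to -0.10) and 0.15 (0.13 to 0.18). The 7 genes of 1 complex, all but MT-ND6 on the same strand, thus spread over 0.46 log2 units in U251 and 0.30 in U87.

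MT-CYB, the cytochrome b of complex III, which passes electrons from ubiquinol to cytochrome c, is the only mitochondrially encoded subunit of that complex. It was at 1000.4 and 811 FPKM in U251 Control and Bru and at 1379 and 1517 FPKM in U87 Control and Bru. The log2 ratios of -0.30 (-0.33 to -0.27) and 0.14 (0.11 to 0.16) had opposite signs in the lines, as in complex I.

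The 3 complex IV genes encode the catalytic core of cytochrome c oxidase, which reduces oxygen, and they were lower in Bru in both lines. MT-CO1, which holds the oxygen-reducing centre, was at 5125 and 3981 FPKM in U251 and at 8132 and 7248 FPKM in U87, with log2 ratios of -0.36 (-0.38 to -0.35) and -0.17 (-0.17 to -0.16). MT-CO2, which takes electrons from cytochrome c, was at 6213 and 4503 FPKM in U251 and at 7388 and 6825 FPKM in U87, with log2 ratios of -0.46 (-0.48 to -0.45) and -0.11 (-0.13 to -0.10). MT-CO3 was at 4063 and 2765 FPKM in U251 and at 5716 and 4865 FPKM in U87, and its ratios were -0.56 (-0.57 to -0.54) and -0.23 (-0.25 to -0.22). All 3 had a smaller difference in U87 than in U251, and MT-CO3 had the largest of the 3 in both lines.

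The ATP synthase genes MT-ATP6, part of the proton channel, and MT-ATP8 had the lowest log2 ratios next to MT-ND6 in U251. MT-ATP6 was at 3232 and 2096 FPKM in U251 and at 3598 and 3416 FPKM in U87, giving -0.62 (-0.65 to -0.60) and -0.08 (-0.09 to -0.06). MT-ATP8 was at 1135 and 757 FPKM in U251 and at 1165 and 1172 FPKM in U87, giving -0.58 (-0.65 to -0.52) and 0.01 (-0.05 to 0.07). A difference of MT-ATP8 between the U87 libraries was therefore not detectable at this depth, the only such case among the 13 genes in either Bru comparison.

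The rRNAs form the core of the mitochondrial ribosome. MT-RNR1 was at 408 and 348 FPKM in U251 Control and Bru and at 257 and 309 FPKM in U87, with log2 ratios of -0.23 (-0.28 to -0.18) and 0.26 (0.21 to 0.32). MT-RNR2 was at 1828 and 1463 FPKM in U251 and at 1330.1 and 1429 FPKM in U87, with log2 ratios of -0.32 (-0.34 to -0.30) and 0.10 (0.08 to 0.12). As with complex I and MT-CYB, Bru was below Control in U251 and above it in U87.

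Set side by side, 10 of these 15 genes (both rRNAs, the 7 complex I genes and MT-CYB) were lower in U251 and higher in U87 with intervals that left out 0 in both lines. The share of all genes tested that met this interval condition was not counted, and many reads on a gene make it easier to meet. By sign alone the count was 11 of 15, with MT-ATP8, where 13.9% of all genes tested were below 0 in U251 and above 0 in U87. The difference between the lines, U87 minus U251 on the log2 scale, was positive for all 15 genes and ran from 0.20 for MT-CO1 to 0.998 for MT-ND5. The share of all genes tested with a positive difference was not counted. Across the 13 protein genes the log2 ratios in the 2 lines had a Pearson r of 0.20 and a Spearman rho of 0.15, a description over 13 genes of the same molecule that are not independent of each other. The log2 mean FPKM of a gene had a Pearson r of -0.67 with its log2 ratio in U87 and of 0.13 with that in U251, again over 13 genes. In U87 the ratio thus tended to be lower for genes of higher FPKM. The 3 complex IV genes had the highest mean FPKM and were all lower in Bru in U87, so level and complex are not separated here.

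The makeup of the protein gene reads moved accordingly. Complex I took 31.0% of these reads in Control and 32.7% in Bru of U251, and 29.3% in Control and 35.5% in Bru of U87. Complex IV took 55.9% and 55.1% in U251 and 59.3% and 53.0% in U87, and the ATP synthase genes 8.88% and 7.67% in U251 and 7.23% and 6.92% in U87. Complex I thus had the larger share in Bru in both lines, and complex IV and ATP synthase the smaller share, with the shift of complex I at 6.18 percentage points in U87 and 1.69 in U251. These shares do not depend on how the libraries were scaled. Single genes went against their complex in U251. In complex I, the share of MT-ND2 was 5.12% in Control and 4.89% in Bru, that of MT-ND5 2.89% and 2.62% and that of MT-ND6 0.773% and 0.680%. MT-CO1 went against complex IV in U251, where its share was 28.8% in Control and 29.7% in Bru, whereas in U87 it was 33.7% and 30.1%. MT-ND4 had a larger share in Bru in both lines, 13.3% and 14.3% in U251 and 13.2% and 16.3% in U87.

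**Figure D3:**
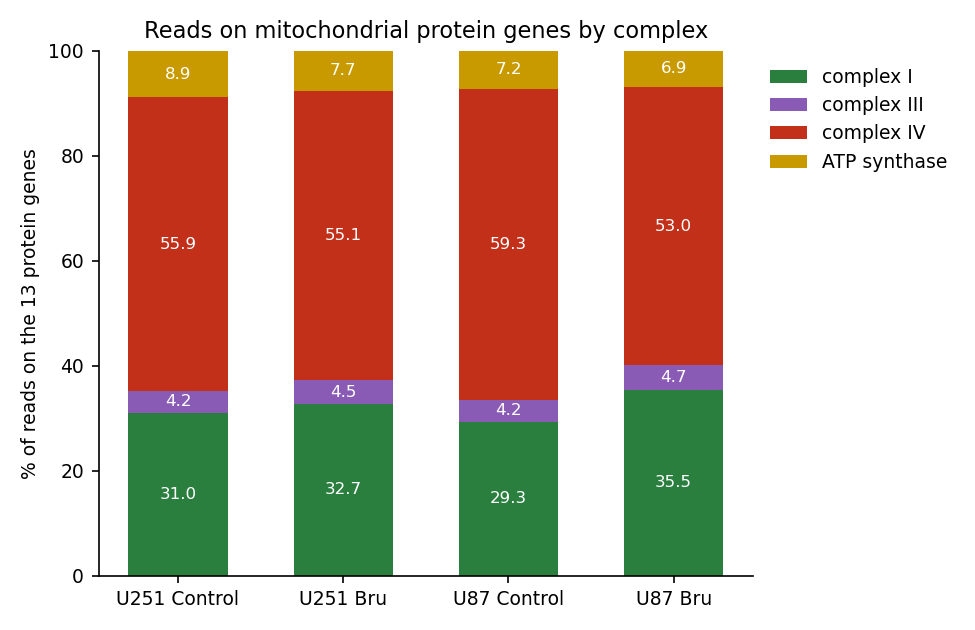
Stacked bars of the reads on the 13 protein genes in each library, in percent, divided by respiratory complex, with each share written in the bar. Complex I (green) is larger in the Bru bar than in the Control bar of each line, from 31.0% to 32.7% in U251 and from 29.3% to 35.5% in U87.

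Comparing the lines with each other uses the same 4 libraries a second time, so these values are not independent of the ratios above. In Control, all 13 protein genes were higher in U87 than in U251, where 49.6% of all genes tested were above 0 and 50.4% below. The log2 ratios ran from 0.04 for MT-ATP8 (-0.02 to 0.10, an interval that includes 0) to 0.67 for MT-CO1 (0.66 to 0.68). Past the 25% cutoff 7 of the 13 were higher, where 35.0% of all genes tested were. In Bru the 13 genes were again all higher in U87, from 0.40 for MT-ND3 (0.37 to 0.43) to 1.40 for MT-ND6 (1.33 to 1.46), where 48.7% of all genes tested were above 0 and 51.3% below. All 13 were then past the 25% cutoff, where 34.0% of all genes tested were, and MT-ND4, MT-ND5 and MT-ND6 were past 2-fold, 3 of 13 where 14.3% of all genes tested were. The gap between the lines was therefore wider in the Bru libraries for every protein gene. This restates the positive differences given above, for which the share of all genes tested was not counted.

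The rRNAs went the other way. In Control, MT-RNR1 and MT-RNR2 were lower in U87 than in U251, with log2 ratios of -0.66 (-0.72 to -0.61) and -0.46 (-0.48 to -0.44). In Bru they lay closer together, at -0.17 (-0.22 to -0.11) and -0.03 (-0.05 to -0.01).

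Reads on the 22 tRNA genes were few, at 1786 (Control) and 1966 (Bru) for U251 and at 2543 (Control) and 3452 (Bru) for U87. The genes are 59 to 75 bases long, shorter than the fragments of a usual RNA library, and whether a read came from a mature tRNA or a longer precursor cannot be told apart here. MT-TF, MT-TW and MT-TA had no read in any library, 9 tRNA genes had 1 to 49 reads over the 4 libraries, and 10 had at least 50. MT-TS1 also missed the minimum mean FPKM of 1, leaving 18 of 22 tRNA genes tested. Past 2-fold, 8 were lower and 0 higher in Bru in U251, and 3 were lower and 1 higher in U87, where 1.41% of all genes tested were lower and 1.92% higher. In U251 the share of all genes tested that were lower past 2-fold was the 5.44% given above. With so few reads most of these ratios have wide intervals, and only the 10 tRNA genes with at least 50 reads are named for their values.

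The largest numbers fell on 2 neighboring minus-strand genes, and there Bru was above Control in both lines. MT-TN had 469 and 796 reads in U251 Control and Bru and 923 and 1609 reads in U87 Control and Bru. MT-TC had 395 and 648 reads in U251 and 692 and 1013 reads in U87. The log2 ratios were 0.94 (0.78 to 1.11) and 0.86 (0.74 to 0.97) for MT-TN and 0.89 (0.71 to 1.08) and 0.60 (0.46 to 0.75) for MT-TC in U251 and U87. MT-TY, which overlaps MT-TC, had 39 and 49 reads in U251 and 68 and 81 reads in U87, and its intervals of -0.13 to 1.15 and -0.18 to 0.79 included 0.

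MT-TP, the minus-strand gene beside the control region, had 509 and 310 reads in U251 and 662 and 622 reads in U87. Its log2 ratio was -0.54 (-0.75 to -0.33) in U251 and -0.04 (-0.20 to 0.12) in U87. In U251 the minus-strand tRNA genes thus lay on both sides of 0, and in U87 a difference of MT-TP was not detectable at this depth.

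The cluster of MT-TH, MT-TS2 and MT-TL2 on the plus strand, between MT-ND4 and MT-ND5, was lower in Bru in both lines. Together the 3 genes had 194 reads in Control and 47 in Bru of U251, and 115 in Control and 47 in Bru of U87, which gave log2 ratios of -1.87 (-2.36 to -1.40) and -1.24 (-1.76 to -0.74). MT-TH had 140 and 31 reads in U251 and 74 and 37 reads in U87, with log2 ratios of -2.00 (-2.61 to -1.43) and -0.95 (-1.56 to -0.36). In U87 the messenger RNAs on both sides of this cluster, MT-ND4 and MT-ND5, were higher in Bru while the cluster between them was lower. MT-TS2 had 22 and 8 reads in U251 and 27 and 1 reads in U87, and its interval in U87 ran from -10.06 to -2.10. MT-TL2 had 32 and 8 reads in U251, at a log2 ratio of -1.82 (-3.15 to -0.67), and 14 and 9 reads in U87, where the interval of -1.97 to 0.73 included 0.

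Of the other named tRNA genes, MT-TR, for arginine, had 39 and 14 reads in U251, a log2 ratio of -1.30 (-2.30 to -0.39), and 22 and 16 reads in U87, where the interval included 0. For MT-TL1, with 49 and 52 reads in U251 and 22 and 33 reads in U87, and for MT-TG, with 32 and 16 reads in U251 and 6 and 5 reads in U87, the intervals included 0 in both lines. Summed over all 22 tRNA genes the log2 ratio was 0.32 (0.22 to 0.41) in U251 and 0.49 (0.42 to 0.57) in U87. The median over the 18 tested tRNA genes was -0.78 in U251 and -0.30 in U87. The sum and the median thus had opposite signs. By sign, 12 of the 18 were lower in U251 and 11 of the 18 in U87, where 52.1% and 56.7% of all genes tested were below 0. MT-TI, with 6 and 0 reads in U87, counts as lower, and the median is the same with MT-TI set to the floor of 3 reads.

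**Figure D4:**
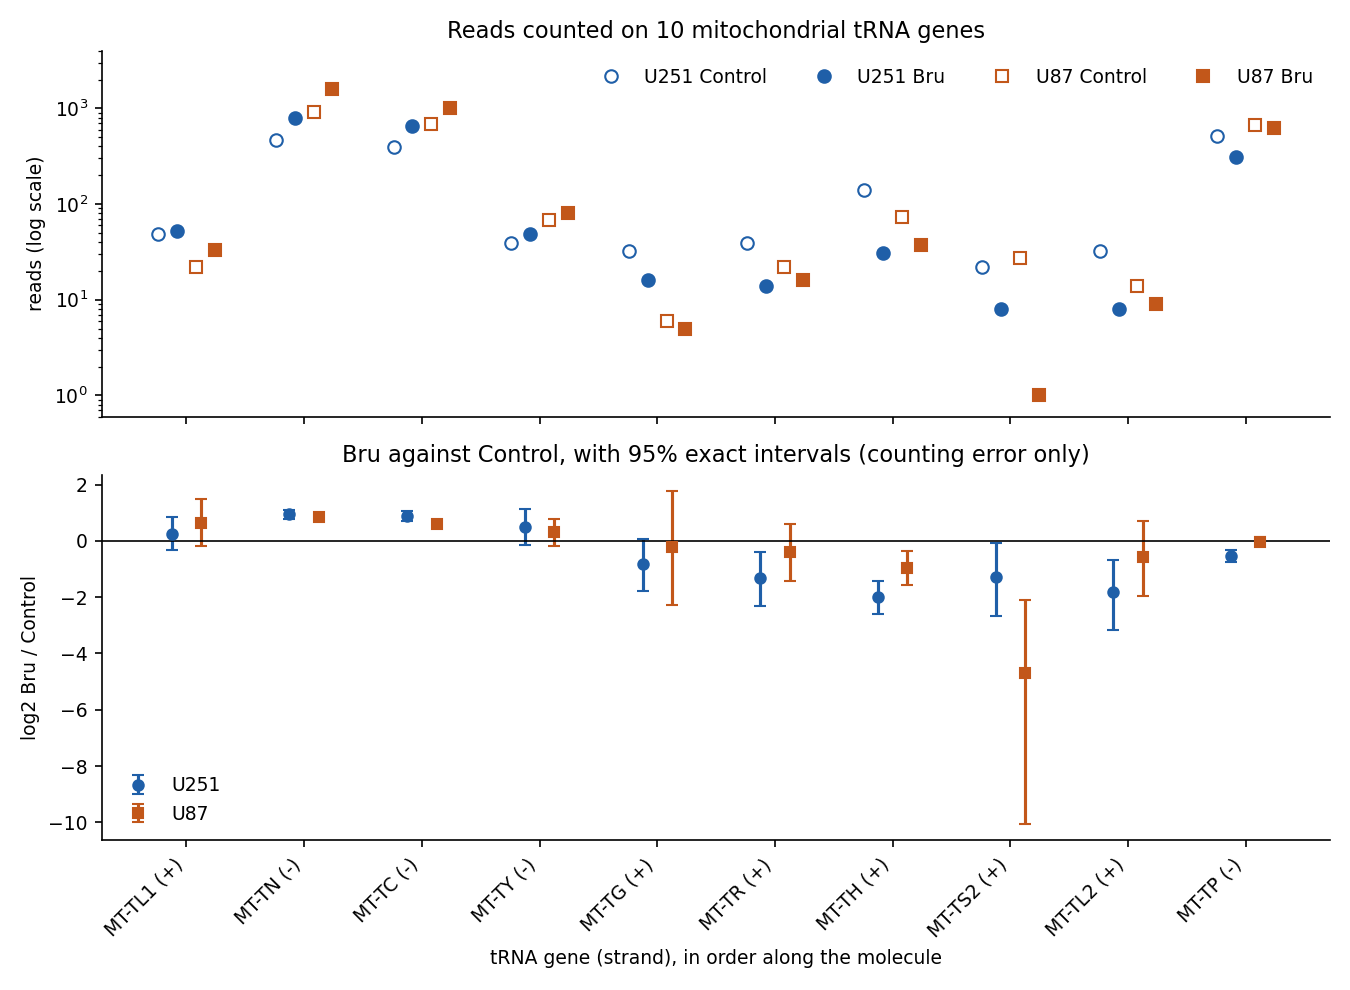
Reads in each library on a log axis (top) and log2 ratio of Bru to Control with 95% exact intervals of counting error (bottom) for the 10 tRNA genes with at least 50 reads over the 4 libraries, with the strand of each gene in brackets. MT-TN and MT-TC lie above 0 in both lines, and MT-TH and MT-TS2 lie below 0 in both lines.

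Strand bears on these values, because the kit was not stated to keep it. Reads of MT-ND6 and of the 8 minus-strand tRNA genes cannot be told apart from antisense reads of the opposite strand. The same holds for the plus-strand genes. The part of antisense reads in the results was not tested.

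Stretches of mitochondrial DNA also exist as old copies in the nuclear genome, and reads of the genes and of the copies can be split between them. The gene list holds 407 names of such copies, of which 54 had a read and 3 had at least 50. MTATP6P1, MTND2P28 and MTCO1P12, all on chromosome 1, had 16642, 5011 and 1473 reads over the 4 libraries and together 99.1% of all reads on copies. MTATP6P1 stood at 303 and 211 FPKM in U251 Control and Bru and at 352 and 449 FPKM in U87, and it held 8.58%, 9.13%, 8.92% and 11.6% of the reads of MT-ATP6 and itself in these libraries. For MTND2P28 and MT-ND2 this share was 4.10% to 4.31%, and for MTCO1P12 and MT-CO1 it was 0.163% to 0.259%. Few reads were thus counted on the copies beside the genes, with the largest share at MT-ATP6. How many reads of the genes went to copies or were dropped was not measured. The log2 ratios of MTATP6P1 were -0.53 in U251 and 0.35 in U87, where MT-ATP6 was at -0.08. Those of MTND2P28 were -0.47 and 0.26, and those of MTCO1P12 were 0.01 and 0.20.

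Sequence identity was compared over all stretches of 50 bases, shorter than a read, and of 150 bases, a read length named in the labels. Of the 50-base stretches of MT-CO1, 49.5% also occurred in a nuclear transcript, and this share was 46.7% for MT-ATP6, 43.6% for MT-ND2, 30.6% for MT-CO3 and 28.98% for MT-CO2. Among the 150-base stretches it was 15.7% for MT-ND2, 14.5% for MT-CO1 and 1.12% for MT-ND1, and 0 for the other protein genes and the rRNAs, while the tRNA genes are shorter than 150 bases. When the reads of the copy were added, the log2 ratio of MT-ATP6 was -0.62 in U251 and -0.03 in U87, that of MT-ND2 was -0.48 and 0.19, and that of MT-CO1 was -0.36 and -0.17, so no sign changed.

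The nuclear genes of the same complexes gave another pattern in U251. Of 75 nuclear subunits of complexes I, III and IV and the ATP synthase, 73 passed the filter. These counts include ATP5IF1, the inhibitory factor of the ATP synthase. In U251, 62 of them were higher in Bru and 11 lower, where 47.2% of all genes tested were above 0, and the median log2 ratio was 0.26. Past the 25% cutoff 32 were higher and 0 lower, where 23.4% and 28.4% of all genes tested were. In U87, 52 were higher and 21 lower with a median of 0.11, where 42.3% of all genes tested were above 0 and 56.7% below. Past the 25% cutoff 5 were higher and 2 lower in U87, where 10.5% and 14.2% of all genes tested were. In U251 the medians of the nuclear and the mitochondrial subunits thus lay on opposite sides of 0 in each complex. They were 0.23 and -0.36 in complex I and 0.27 and -0.30 in complex III (MT-CYB alone). In complex IV they were 0.19 and -0.46, and in the ATP synthase 0.33 and -0.60. Below 0 were 6 of 35 nuclear subunits in complex I and 0 of 9 in complex III. In complex IV 4 of 11 were below 0, and in the ATP synthase 1 of 18, where 52.1% of all genes tested were. In U87 the medians were 0.10 and 0.27 in complex I, 0.11 and 0.14 in complex III, 0.04 and -0.17 in complex IV and 0.15 and -0.03 in the ATP synthase.

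The 3 nuclear subunits of each complex with the largest mean log2 ratio over both lines are named. NDUFB9, an accessory subunit of complex I, was at 21.4 and 41.4 FPKM in U251 Control and Bru and at 38.8 and 42.6 FPKM in U87, with log2 ratios of 0.95 (0.87 to 1.04) and 0.13 (0.06 to 0.21). NDUFB10 gave 0.79 and 0.14 and NDUFA6 gave 0.56 and 0.34 in U251 and U87. In complex III, CYC1, the cytochrome c1, gave 0.56 and 0.11, UQCRQ gave 0.38 and 0.12 and UQCRB gave 0.28 and 0.20. COX7B of complex IV gave 0.76 and 0.12, COX6B1 gave 0.45 and 0.17 and COX5A gave 0.45 and 0.14. ATP5MC1, the c subunit of the ATP synthase, gave 0.85 and 0.37, ATP5ME gave 0.75 and 0.37 and ATP5PO gave 0.74 and 0.21. These genes were chosen for the size of their ratios, so their direction says nothing of the nuclear subunits as a set. Complex II, which has no mitochondrially encoded subunit, had 3 of 4 genes higher in both lines. Of all genes tested, 47.2% were above 0 in U251 and 42.3% in U87. SDHB was at 0.74 and 0.20, SDHD at 0.57 and 0.01 (an interval that includes 0) and SDHA at -0.25 and -0.12.

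Factors that copy, process and translate mitochondrial RNA are also nuclear. Of all genes tested, 47.2% were above 0 in U251 and 42.3% in U87. Of 19 genes for maintenance and transcription of mitochondrial DNA, 13 were higher and 6 lower in U251 at a median of 0.06, and 14 were higher and 5 lower in U87 at a median of 0.11. TFAM, which packages and bends mitochondrial DNA, was at 15.4 and 15.8 FPKM in U251 and at 9.25 and 9.99 FPKM in U87, and its intervals of -0.06 to 0.14 and -0.02 to 0.24 included 0. POLRMT was at 20.2 and 21.5 FPKM in U251 and at 19.5 and 20.9 FPKM in U87, with log2 ratios of 0.09 (0.00 to 0.18) and 0.10 (0.01 to 0.19). The RNAs of the polymerase and of TFAM thus differed little between Bru and Control. TWNK, the helicase of mitochondrial DNA replication, had the largest ratio in this list, at 9.42 and 20.8 FPKM in U251 and at 8.09 and 13.2 FPKM in U87, which gave 1.14 (1.02 to 1.27) and 0.70 (0.56 to 0.86). MTERF4 gave 0.66 and 0.26, and PRIMPOL, a primase-polymerase, was lower in Bru at -0.56 and -0.28.

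Again beside 47.2% and 42.3% of all genes tested above 0 in U251 and U87, the other lists gave these counts. Among 36 tested genes for processing, modification and decay of mitochondrial RNA, 30 were higher and 6 lower in U251 at a median of 0.32, and 22 were higher and 14 lower in U87 at a median of 0.04. SLIRP was at 21.4 and 45.8 FPKM in U251 Control and Bru and at 36.98 and 49.2 FPKM in U87, with log2 ratios of 1.10 (0.997 to 1.20) and 0.41 (0.32 to 0.50). LRPPRC, its partner, was at 16.2 and 25.1 FPKM in U251 and at 26.6 and 31.3 FPKM in U87, with log2 ratios of 0.63 (0.56 to 0.69) and 0.24 (0.18 to 0.29). PTCD2 gave 0.96 and 0.05 and MTO1, which modifies tRNAs, gave 0.79 and 0.18, both with intervals that included 0 in U87. In U251 the RNAs of LRPPRC and SLIRP were thus higher in Bru while the mitochondrial messenger RNAs were lower. Of 20 tested genes for translation and membrane insertion, 16 were higher and 4 lower in U251 at a median of 0.35, and 14 were higher and 6 lower in U87 at a median of 0.07. MTIF2, the initiation factor of mitochondrial translation, was at 10.2 and 20.9 FPKM in U251 and at 24.1 and 33.5 FPKM in U87, giving 1.02 (0.89 to 1.159) and 0.47 (0.37 to 0.57). MTG2 gave 0.94 and 0.42 and RMND1 gave 0.88 and 0.25.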

How the data were processed

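RNA from 4 cultures, 1 per condition, was sequenced as paired-end reads with the NEB Next Ultra kit. The authors deposited FPKM per gene and the gene lengths behind them. The processing notes name HISAT2 2.0.5, StringTie 1.3.3b, featureCounts 1.5.0-p3 and DESeq2 1.16.1 without their roles, and build hg18, whereas the coordinates of 58690 of 58735 genes, and of all 37 MT genes, are those of GENCODE release 29 (GRCh38), used here. The authors' handling of reads that overlap 2 genes or match several places was not given in the sources used here.

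FPKM times length was a whole multiple of 1 step per library, within 4.35e-05 reads, which gave the reads per gene and the library size inside the FPKM. The 95% intervals are exact Clopper-Pearson intervals of the Bru share of a gene's reads. Counts and medians used log2(FPKM + 0.1) where the FPKM averaged at least 1 over the libraries, a scale that understates the change of low genes. FPKM are not counts, and with 1 library per condition no count model was fitted. The recovered reads were used for shares, intervals, ratios of summed reads and the other scalings. They also gave the log2 ratios of single tRNA genes and of nuclear copies, which take no pseudocount. A count of 0 allows up to 3 reads, or 0.143 to 0.172 FPKM for a gene of 1 kilobase. The scripts were tested on simulated data.

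All 13 protein genes and 2 rRNAs were named by value, tRNA genes singly with at least 50 reads, in each nuclear list the 3 with the largest absolute mean of both log2 ratios with TFAM, POLRMT, LRPPRC and SLIRP, and of the nuclear copies the 3 with most reads. The members and lists were chosen with earlier results of these data known. Python 3.11.15, numpy 2.4.6, scipy 1.17.1, pandas 2.3.3 and matplotlib 3.10.9 were used.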

Additional observations from a re-analysis of the deposited data

Results flagged for a closer look

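The following 10 genes were lower in Bru than in Control in U251 and higher in U87, with intervals of counting error on opposite sides of 0. By sign alone, 13.9% of all genes tested were below 0 in U251 and above 0 in U87. The share that met the interval condition was not counted. The difference of the log2 ratio, U87 minus U251, was 0.998 for MT-ND5, 0.88 for MT-ND6, 0.66 for MT-ND2, 0.63 for MT-ND4L, 0.61 for MT-ND4, 0.32 for MT-ND1 and 0.29 for MT-ND3 in complex I. It was 0.44 for MT-CYB, 0.49 for MT-RNR1 and 0.42 for MT-RNR2. The difference was not tested, since each condition has 1 library, and the spread between cultures is unknown. Under every other scaling of the libraries the signs remained opposite in each of these 10 genes. The 10 settings tried also varied the pseudocount and the filter. Neither can change the sign of a gene's ratio, so those settings are no check of it.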

How the results depend on the processing

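No replicate could be left out and no paired analysis was possible because each condition has 1 library. The 13 protein genes were all lower in U251, and 9 higher and 4 lower in U87, under each of the 5 other scalings. With the total of recovered reads, that total without MT genes, a median of 0, the 75th percentile and TPM in turn, the median of the 13 was -0.38, -0.39, -0.44, -0.38 and -0.44 in U251 (-0.46 as reported) and the rRNA sum -0.22, -0.23, -0.28, -0.22 and -0.28. Under these 5 scalings in turn, the protein genes lower past the 25% cutoff in U251 numbered 7, 7, 9, 7 and 9 (9 as reported). In U87, for the first 4 of these, the median was 0.20, 0.20, 0.19 and 0.21 (0.15 as reported), the rRNA sum 0.16, 0.17, 0.16 and 0.18, and the protein genes higher past the 25% cutoff 3, 3, 3 and 4 (1 as reported). The MT genes higher past 2-fold in U251 numbered 1 with the total of recovered reads with or without MT genes, the 75th percentile, no filter or a minimum FPKM of 0.1, and 0 as reported. In U87 they numbered 0 with a pseudocount of 1, and 2 with no filter or a minimum of 0.1, against 1. With a minimum of 5, the MT genes lower past 2-fold were 4 in U251 and 1 in U87, against 8 and 3, because low tRNA genes left the test. For none of these other settings was the share of all genes tested past a cutoff counted. The log2 ratio of the share of MT reads was -0.40 in U251 and 0.00503 in U87 against the library size inside the FPKM, 0.0520 in U87 against reads on protein-coding genes, -0.32 and 0.0373 for the 13 protein genes alone, and -0.32 and 0.0396 without the rRNAs, against -0.31 and 0.0472. Adding the reads of its nuclear copy to MT-ATP6, MT-ND2 or MT-CO1 was chosen after seeing the data. Depth limits the tRNA genes most, since 12 of 22 had under 50 reads in all.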
